A study of Mus musculus with 15 samples.

Results

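The cytosolic ribosomal protein genes were taken from the count table by their symbols. A member is any gene whose whole symbol is Rpl or Rps followed by a number and at most one letter a, l or x, together with Rplp0, Rplp1, Rplp2 and Rpsa. Pseudogene symbols ending in -ps and the Rps6k kinases are outside this rule. It found 82 members among the 40402 genes listed. The cells were 4T1, an established mouse mammary carcinoma line used as a model of triple-negative breast cancer, labelled wild type in all 5 conditions. Cells were left untreated, or were treated from 24 h after seeding with an extract of blackberry (BLA) or of blueberry (BLU), or with gold nanoparticles made using either one (BLA-A and BLU-A). Bulk RNA-seq gave 3 columns of counts per condition, given as separate samples in the labels but listed as read subsets of 1 sample per condition in the study's sequencing report. Within each condition these columns were closer to each other than sampling noise, with a chi-square per degree of freedom from 0.0951 to 0.475, so they were averaged and each condition counts as 1 library. No comparison of one condition with another therefore has a replicate check. Each column carries its own date under the batch label, and the conditions do not share a date, so date and condition cannot be told apart. The libraries held means of 25613711 to 26956308 counts.

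The cytosolic ribosome reads messenger RNA in its small subunit and joins amino acids in its large subunit. Each subunit is a shell of proteins around ribosomal RNA, and nearly all of the proteins are present once per ribosome, so a cell needs their mRNAs in coordinated amounts. In growing tumour cells these mRNAs are among the most abundant. Most vertebrate ribosomal protein mRNAs begin with a C followed by a run of pyrimidines, the 5′ terminal oligopyrimidine (5′ TOP) tract, through which mTORC1 and LARP1 control their translation and stability together. Many of the genes also have intronless copies elsewhere in the genome, left by retrotransposition, and several carry small nucleolar RNAs in their introns.

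Start-site sequences from RefSeq (GRCm38.p6) were matched to 61 of the 82 members by symbol. A tract was counted where a C and at least 4 further pyrimidines (C or T) in an unbroken run on the coding strand began within 5 bases of the annotated start. It was present in 29 of the 61 members, or 47.5%, against 21.1% of the 26957 other genes with a window. The windows below run from 10 bases before the start to 20 bases from it and are shown for members that the results turn on, with the tract in capitals. The first 5 were among the members highest in BLA-A relative to untreated cells.
Rpl39, chrX:37085203-37085232, minus strand: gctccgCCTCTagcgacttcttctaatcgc
Rps28, chr17:33824543-33824572, minus strand: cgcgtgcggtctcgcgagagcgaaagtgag
Rps10, chr17:27635225-27635254, minus strand: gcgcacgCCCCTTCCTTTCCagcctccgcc
Rpl37, chr15:5116603-5116632, plus strand: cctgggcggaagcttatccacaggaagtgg
Rps15, chr10:80292421-80292450, plus strand: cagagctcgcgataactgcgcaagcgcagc
The next 5 were among the members lowest in BLA-A.
Rps23, chr13:90923112-90923141, plus strand: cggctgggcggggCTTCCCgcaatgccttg
Rpl38, chr11:114668570-114668599, plus strand: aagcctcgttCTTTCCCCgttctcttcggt
Rpl26, chr11:68901556-68901585, plus strand: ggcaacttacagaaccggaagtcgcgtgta
Rpl24, chr16:55966265-55966294, plus strand: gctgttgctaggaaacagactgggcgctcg
Rpl31, chr1:39367841-39367870, plus strand: tcctcgCCTCCCCgtgacccggaagttgta
The last 4 are 2 long tracts, then the window of the most abundant member, Rpl4, and that of Rps26, which was low in BLA.
Rpl15, chr14:18270967-18270996, minus strand: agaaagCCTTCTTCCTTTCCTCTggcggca
Rpl27a, chr7:109519185-109519214, plus strand: cgtgagCTCCTCCCTTTTCCCTTTCTgcca
Rpl4, chr9:64173377-64173406, plus strand: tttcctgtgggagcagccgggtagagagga
Rps26, chr10:128626487-128626516, minus strand: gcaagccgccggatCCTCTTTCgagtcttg
Among the members highest in BLA-A, Rps10 and Rpl39 had a tract by this definition and Rps28, Rpl37 and Rps15 did not. Of the 5 low members shown, Rps23, Rpl38 and Rpl31 had one and Rpl26 and Rpl24 did not. These are not the 5 lowest with a window. Rpl6 at -1.38 and Rpl36a at -1.34 had no tract and Rps18 at -1.31 had one, all below Rpl31 at -1.30. An annotated start that lies some bases from the true one hides a tract, so an absent tract says only that these letters are not at the annotated position.

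Of the 82 members, 78 reached a level of 1 CPM (counts per 1000000 counts) in at least 1 library and were kept, and these 78 were at or above it in all 5. They comprised 47 genes of the large and 31 of the small subunit. The 4 members left out had few counts. Rpl3l, a paralog of Rpl3 known from striated muscle, averaged 14.0 counts in BLU and at most 1.67 elsewhere, Rpl10l, a testis paralog of Rpl10, had 9.33 in BLU only, and Rpl39l, a testis paralog of Rpl39, had 7.33 in BLU-A only. Rpl32l was listed at 0 in all libraries. Rpl6l was kept, and was at 44.7 CPM in untreated cells, 38.9 under BLA, 41.0 under BLU, 47.3 under BLA-A and 34.6 under BLU-A. Rps27l, a close paralog of Rps27, was kept, at 25.6 CPM in untreated cells, 13.6 under BLA, 20.9 under BLU, 51.3 under BLA-A and 20.4 under BLU-A.

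Levels below are CPM after TMM normalization, which scales libraries so that most genes do not differ. Rpl4, which lines part of the tunnel through which the new protein leaves the ribosome, had the highest level, at 1859.9 CPM in untreated cells, 1299.7 under BLA, 1455 under BLU, 1033 under BLA-A and 1697 under BLU-A. It lies on chromosome 9 at 64080618 to 64086351 (GRCm39, plus strand) with 5 small nucleolar RNAs annotated inside it. The next highest in untreated cells were Rpl7 at 500.3 CPM, Rpl32 at 455, Rps4x at 421 and Rpsa at 409, and the median member was at 43.5. Rps27, Rps29 and Rpl29 were lowest, at 2.12, 2.27 and 2.61 CPM. Per kilobase of coding sequence the levels in untreated cells ran from 5.43 CPM for Rpl29 to 3075 for Rpl41. The proteins of both subunits are nevertheless needed in near equal numbers. The coding sequence of Rpl41 is only 75 bases, and reads were counted over whole genes with introns, so division by coding length can overstate its level.

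The authors counted reads only where they aligned to a single place, and most members have copies. A near-identical copy (at least 95% identity over at least 80% of the coding sequence) was found in GRCm39 for 74 of the 80 members with an annotated coding sequence. Rpl21 had 55, Rpl7a 30, Rpl29 28 and Rps2 25, while members such as Rps3 and Rpl8 had none. For 25 members every 100-base window of the coding sequence occurred exactly at another place. The median level of these 25 in untreated cells was 31.8 CPM per coding kilobase, against 161 for the 39 kept members with 25% to under 100% of windows copied and 457 for the 12 with under 25%. Across the 76 members with both values, the share of copied windows and the log2 level per coding kilobase had a Pearson r of -0.64 and a Spearman rho of -0.66, a description across genes that share the libraries. Rps2, which lines the entry of the mRNA channel, was at only 5.74 CPM per coding kilobase with 69.0% of its windows copied, while Rps3, beside it in the ribosome, was at 463 with no window copied. Levels of different members were therefore not compared further, and a fold change of a member with copies rests on the reads that remained unique.

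**Figure D1:**
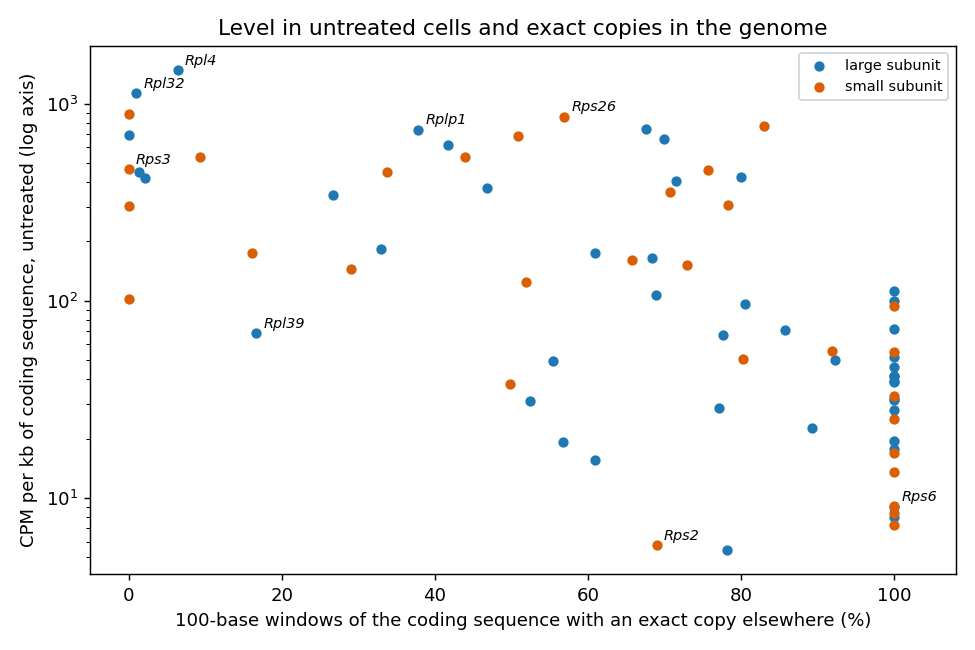
Level of 76 ribosomal protein genes in untreated cells (CPM per kilobase of coding sequence, log axis) against the percentage of 100-base coding windows with an exact copy elsewhere in GRCm39. Members with every window copied lie below 113 CPM per coding kilobase, whereas those with under 25% copied have a median of 457.

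The members took up a smaller share of the counts in the treated libraries. Their summed share of all counts was 1.08% in untreated cells, 0.733% under BLA, 0.822% under BLU, 0.894% under BLA-A and 0.979% under BLU-A. The untreated library was thus the highest of the 5 and the BLA library the lowest. The read subsets of a condition were close, the widest range being 0.977% to 0.98%, in BLU-A. Both extracts lay below the nanoparticles made with the same berry. In a bulk library, fewer cells that express these genes and less of their RNA per cell cannot be told apart. The median log2 fold change of the 78 members against untreated cells was -0.40 for BLA, -0.32 for BLU, -0.27 for BLA-A and -0.14 for BLU-A, with medians over all 17594 genes kept between -0.013 and 0.00016. The 4 comparisons share the untreated library.

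**Figure D2:**
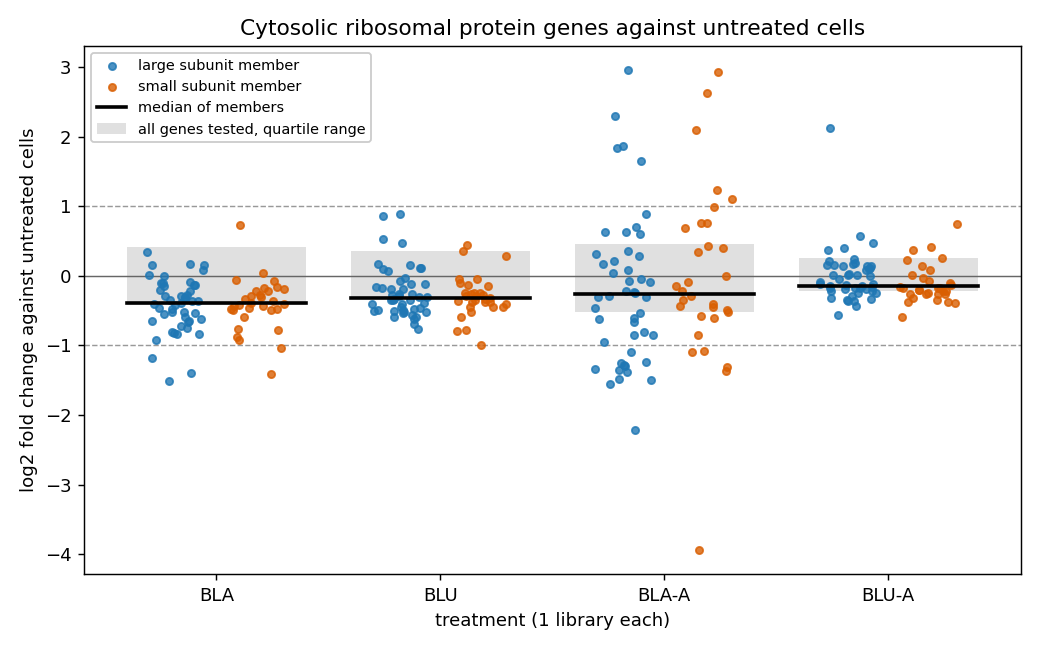
Log2 fold change of the 78 kept members against untreated cells in each treatment, with 1 point per gene coloured by subunit, a black line at the members' median and a grey band for the quartile range of all genes tested. In BLA and BLU most points lie below 0, BLA-A has points far to both sides, and BLU-A is narrow apart from Rpl3 at 2.12.

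In BLA most members were lower. Of the 78 members, 70 were lower than in untreated cells, with a background of 50.9% of all genes. Past a log2 fold change of 0.5, 26 were lower (background 21.4%) and 1 was higher (background 21.1%), and past 1, 5 were lower (background 8.51%) and 0 were higher (background 7.91%). Most members thus shared a direction, and few had a log2 fold change past 1. Of the 2521 protein-coding genes spanning under 10 kb, 68.9% were lower in BLA, and past 0.5, 876 were lower and 313 higher. The 5 members past 1 were Rpl36a, Rps23, Rplp1, Rpl37 and Rps26. Rps26, which contacts the mRNA at the exit of its channel, was at 295 CPM in untreated cells, 143 under BLA, 206 under BLU, 193 under BLA-A and 232 under BLU-A, a log2 fold change of -1.04 in BLA, and untreated cells had the highest level. Rpl36a, an X-linked gene of the large subunit, was at 10.1 CPM in untreated cells, 3.24 under BLA, 6.54 under BLU, 3.69 under BLA-A and 12.0 under BLU-A, with -1.51 in BLA from 88.0 counts. All its coding windows have exact copies. Abundant members with few copied windows were lower too. Rpl8 was at 324 CPM in untreated cells, 192 under BLA, 225 under BLU, 275 under BLA-A and 293 under BLU-A (-0.75 in BLA), and Rpl32 at 455 CPM in untreated cells, 277 under BLA, 320.1 under BLU, 236 under BLA-A and 488 under BLU-A (-0.72). All 12 kept members with under 25% of windows copied were lower in BLA, with a median of -0.50. The highest members were Rps27 at 0.72, Rpl28 at 0.35 and Rpl17 at 0.18, all at or under 5.06 CPM in untreated and BLA cells, and the level of Rps27 was 2.12 CPM in untreated and 3.82 in BLA.

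In BLU most members were lower too, by smaller amounts. Of the 78 members, 65 were lower (background 50.5%), 16 were lower past 0.5 (background 14.6%) and 3 were higher past 0.5 (background 18.3%). Past 1, 0 were lower (background 4.62%) and 0 higher (background 5.64%). Of the 2521 protein-coding genes spanning under 10 kb, 71.8% were lower in BLU, and past 0.5, 610 were lower and 244 higher. Of the members, Rps23 at -0.99, Rps20 at -0.79 and Rps10 at -0.77 were lowest. Rps20, of the head of the small subunit, was at 275 CPM in untreated cells, 145 under BLA, 159 under BLU, 237 under BLA-A and 277 under BLU-A, so the extracts stood apart from the other 3 libraries. The 12 members with few copied windows were again all lower, with a median of -0.32. Rpl13 at 0.88, Rpl35a at 0.85 and Rpl17 at 0.53 were the 3 members higher past 0.5. Rpl13 was at 45.5 CPM in untreated cells, 28.9 under BLA, 84.3 under BLU, 36.6 under BLA-A and 50.8 under BLU-A, and BLU alone was high. Rpl35a was at 6.36 CPM in untreated cells, 6.40 under BLA, 11.9 under BLU, 8.28 under BLA-A and 7.18 under BLU-A. All coding windows of Rpl13 and Rpl17 and 56.7% of those of Rpl35a have exact copies. The copy Rpl13-ps6 had 1368 mean counts in untreated cells and 507 in BLU, while Rpl13 had 1212 and 2319. Fewer members were higher past 0.5 in BLU when the counts of all near-identical copies were added. In both extracts together, 61 of the 78 members were lower than in untreated cells, as were 38.3% of all genes.

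In BLU-A the members lay closest to untreated cells. Of the 78 members, 48 were lower (background 49.8%), 2 were lower past 0.5 (background 11.9%) and 3 were higher past 0.5 (background 12.9%). Past 1, 0 were lower (background 4.49%) and 1 was higher (background 3.39%). The exception was Rpl3, which lies near the site where peptide bonds form. It was at 27.4 CPM in untreated cells, 18.6 under BLA, 22.7 under BLU, 10.9 under BLA-A and 121 under BLU-A, from 729 mean counts in untreated cells and 3202 in BLU-A, a 4.36-fold higher level. BLU-A alone was high, and the other 4 libraries spanned 10.9 to 27.4 CPM. Rpl3 lies on chromosome 15 at 79961825 to 79976069 (GRCm39, minus strand), with 4 other annotated genes overlapping it and 89.3% of its coding windows copied. Next were Rps29 at 0.74, from 2.27 to 4.13 CPM, and Rpl26 at 0.57. The lowest were Rps7 at -0.59, Rpl27a at -0.56 and Rpl21 at -0.43.

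In BLA-A members lay far to both sides of untreated cells. Of the 78, 48 were lower (background 50.7%), 29 were lower past 0.5 (background 26%) and 19 higher past 0.5 (background 23.4%). Past 1, 17 were lower (background 12.3%) and 10 were higher (background 8.55%). The quartiles of the members were -0.85 and 0.43, against -0.61 and -0.19 in BLA. For 49 of the 78 members, BLA-A was the largest of the 4 differences from untreated cells, as it was for 43.8% of all genes. The level spanned more than 2 log2 units over the 5 libraries in 10 members, or in 8.70% of all genes, and in 1 member, Rpl3, when BLA-A was left out.

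**Figure D3:**
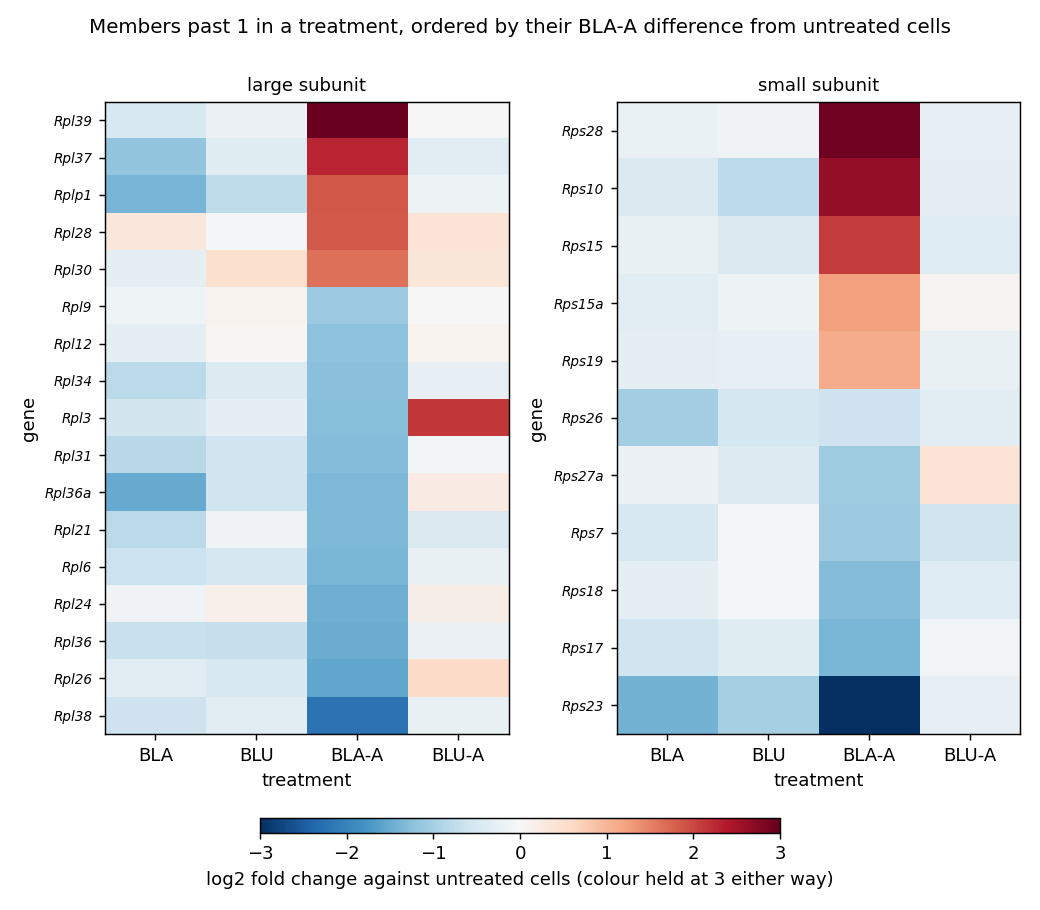
Log2 fold change against untreated cells of each member past 1 in either direction in at least 1 treatment (rows, italic symbols) in the 4 treatments (columns), with large subunit genes on the left and small subunit genes on the right, ordered by BLA-A. The BLA-A column runs from 2.96 for Rpl39 to -3.94 for Rps23, while the BLA and BLU columns are mostly pale blue.

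The members higher past 1 in BLA-A were Rpl39, Rps28, Rps10, Rpl37, Rps15, Rplp1, Rpl28, Rpl30, Rps15a and Rps19. Rpl39, a very small protein of the exit tunnel, was at 10.5 CPM in untreated cells, 7.45 under BLA, 9.15 under BLU, 84.7 under BLA-A and 10.5 under BLU-A, a log2 fold change of 2.96 in BLA-A. Rps28, which lies near the mRNA exit, was at 3.49 CPM in untreated cells, 3.00 under BLA, 3.22 under BLU, 29.8 under BLA-A and 2.85 under BLU-A (2.92). BLA-A alone was high in both. Rps10, on the head of the small subunit and a target of ubiquitination when ribosomes collide, was at 25 CPM in untreated cells, 18.4 under BLA, 14.4 under BLU, 157 under BLA-A and 20.8 under BLU-A (2.63). Rpl37 was at 19.5 CPM in untreated cells, 8.30 under BLA, 15.2 under BLU, 97.7 under BLA-A and 15.3 under BLU-A (2.29). Here too the other 4 libraries lay well below BLA-A. Rps15, also of the head, was at 61.7 CPM in untreated cells and 264 in BLA-A (2.09), with 16.1% of its windows copied.

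The members lower past 1 were led by Rps23, Rpl38 and Rpl26. Rps23, whose loop reaches the decoding centre, was at 40.2 CPM in untreated cells, 14.7 under BLA, 20.0 under BLU, 2.15 under BLA-A and 33.6 under BLU-A. The BLA-A level rested on 49.7 mean counts, against 1069 in untreated cells, and its log2 fold change of -3.94 was the largest of any member. Rps23 was also low in both extracts, at -1.42 and -0.99, and close to untreated cells in BLU-A. Rpl38, a large subunit protein known from a mouse mutant with skeletal patterning defects, was at 20.9 CPM in untreated cells, 13.4 under BLA, 16.4 under BLU, 4.09 under BLA-A and 17.9 under BLU-A (-2.22 in BLA-A). Rpl26, at -1.55, was at 13.5 CPM in untreated cells, 10.8 under BLA, 9.74 under BLU, 4.28 under BLA-A and 20.3 under BLU-A, lowest in BLA-A and highest in BLU-A. The other 14 had log2 fold changes from -1.50 for Rpl36 to -1.07 for Rps27a. Of the 39 kept members with 25% to under 100% of windows copied, 10 were lower and 6 higher past 1, with a median of -0.29. Of the 25 with every window copied, 7 were lower and 2 higher, with a median of -0.41. Among the 12 with under 25% copied, 0 were lower past 1, 2 were higher (Rpl39 and Rps15) and the median was -0.034. The share of copied windows and the BLA-A log2 fold change had a Pearson r of -0.20 and a Spearman rho of -0.21 over 76 members. The coding GC content had 0.19 and 0.26, and the coding length -0.21 and -0.16, over 77.

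**Figure D4:**
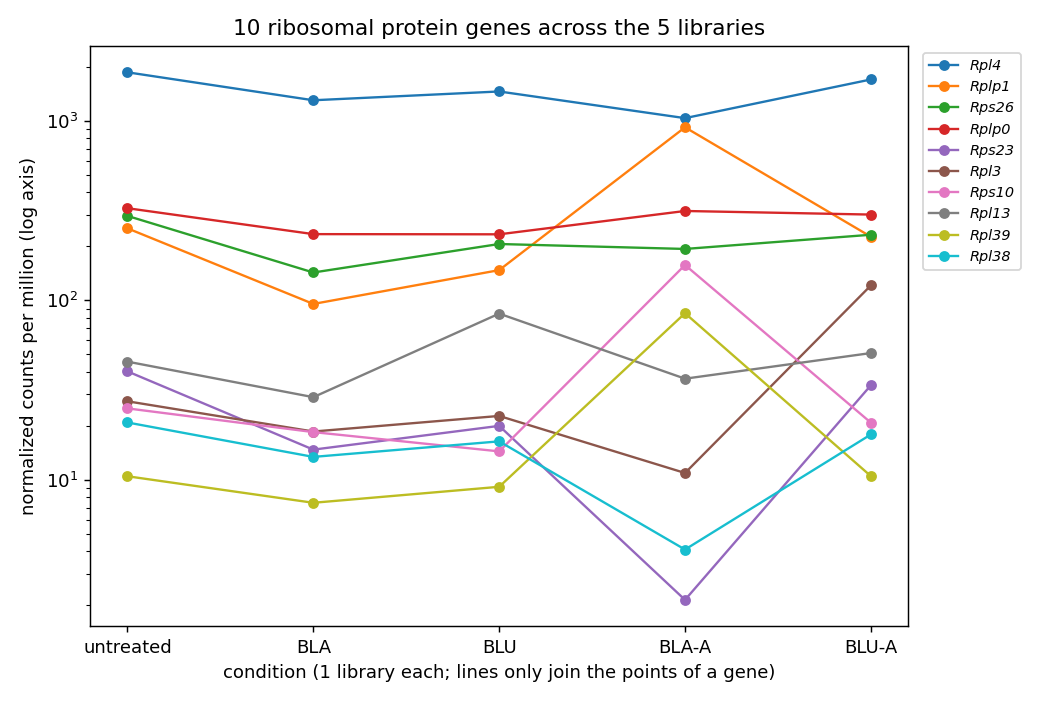
Normalized CPM (log axis) of 10 ribosomal protein genes in the 5 libraries, with 1 point per library and lines that only join the points of a gene. Rplp1, Rps10 and Rpl39 peak in BLA-A, Rps23 and Rpl38 are lowest there, Rpl3 is high only in BLU-A and Rpl13 is highest in BLU.

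Members with shared roles differed from each other in these comparisons. The stalk of the large subunit, which recruits elongation factors, is built from Rplp0, Rplp1 and Rplp2. Rplp0 was at 326 CPM in untreated cells, 234 under BLA, 233 under BLU, 314 under BLA-A and 300.1 under BLU-A, low in both extracts and near the untreated level in the nanoparticles. Rplp1 was at 251 CPM in untreated cells, 95.4 under BLA, 147 under BLU, 919 under BLA-A and 226 under BLU-A, so that its log2 fold change was -1.39 for BLA, -0.77 for BLU and 1.87 for BLA-A. Rplp2, its partner in the stalk dimers, was at 62.7 CPM in untreated cells, 48.9 under BLA, 50.6 under BLU, 77.7 under BLA-A and 57.9 under BLU-A, with 0.31 in BLA-A. Rplp1 thus had the largest log2 fold change of the 3 in each of the 4 treatments, the values in BLU-A being -0.15, -0.12 and -0.12 for Rplp1, Rplp0 and Rplp2.

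Rpl5 and Rpl11 join 5S ribosomal RNA in a particle that can bind Mdm2 when ribosome assembly stalls. Rpl5 was at 27.9 CPM in untreated cells, 23.8 under BLA, 24.9 under BLU, 23.5 under BLA-A and 29.6 under BLU-A, and Rpl11 at 14.9 CPM in untreated cells, 13.6 under BLA, 16.8 under BLU, 12.8 under BLA-A and 16.4 under BLU-A. Their log2 fold changes over the 4 treatments lay between -0.25 and 0.17. All coding windows of both have exact copies. Rps27a, made as a fusion with ubiquitin, was at 15.3 CPM in untreated cells, 13.6 under BLA, 11.5 under BLU, 7.002 under BLA-A and 20.6 under BLU-A, lowest in BLA-A and highest in BLU-A. Rpsa, of the small subunit and also known as a laminin receptor, was at 409 CPM in untreated cells, 306 under BLA, 299 under BLU, 689 under BLA-A and 341 under BLU-A, lower in 3 treatments and higher in BLA-A (0.75). Rps6, the substrate of S6 kinase downstream of mTORC1, was at 6.80 CPM in untreated cells, 6.41 under BLA, 8.41 under BLU, 9.36 under BLA-A and 8.94 under BLU-A, with log2 fold changes from -0.079 to 0.43 and all windows copied.

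Of the 4 X-linked members, Rps4x was at 421 CPM in untreated cells, 319 under BLA, 355 under BLU, 282 under BLA-A and 374 under BLU-A and was lower in all 4 treatments, with -0.58 in BLA-A. Rpl10, which is placed late in assembly and is needed for joining of the subunits, was at 33.2 CPM in untreated cells, 36.9 under BLA, 35.5 under BLU, 18.2 under BLA-A and 38.6 under BLU-A, lowest in BLA-A (-0.85). Rpl36a and Rpl39 are given above. Rpl22, of the large subunit, was at 265 CPM in untreated cells, 202 under BLA, 220.0 under BLU, 151 under BLA-A and 223 under BLU-A and lowest in BLA-A, like Rpl4. Rpl17, which lines the exit tunnel, was at 4.42 CPM in untreated cells and between 4.11 and 6.59 in the treatments. Of the decoding region and head of the small subunit, Rps3 was at 338 CPM in untreated cells, 249 under BLA, 283 under BLU, 447 under BLA-A and 301 under BLU-A, highest in BLA-A, and Rps18 at 17.2 CPM in untreated cells, 14.2 under BLA, 16.7 under BLU, 6.64 under BLA-A and 13.1 under BLU-A, lowest in BLA-A (-1.31). Rps2 was between 3.55 and 5.22 CPM. By subunit, the median log2 fold changes of the 47 large and 31 small subunit members were -0.40 and -0.40 for BLA, -0.31 and -0.33 for BLU, -0.29 and -0.22 for BLA-A, and -0.089 and -0.17 for BLU-A. The 28 kept members with a pyrimidine tract had medians of -0.45, -0.34, -0.081 and -0.18 for the treatments in this order, and the 29 without one -0.31, -0.27, -0.31 and -0.12.

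Next, each nanoparticle was set against the extract of the same berry. In BLA-A against BLA, the median of the members was 0.18, with -0.076 over all genes. Past 1, 6 members were lower (background 13%) and 16 higher (background 11.6%), and past 0.5, 17 were lower (background 29.6%) and 24 higher (background 24.2%). The split past 1 was 9 lower and 12 higher with scaling by total counts, and 4 lower and 17 higher with median-of-ratios scaling. The median ran from 0.032 with scaling by total counts to 0.50 over the 12 members with few copied windows. The largest differences were those of Rpl37 at 3.48, Rpl39 at 3.42 and Rplp1 at 3.26, and on the lower side of Rps23 at -2.53. In BLU-A against BLU, 17 of the 78 members were lower and 61 higher, where 52.2% of all genes were lower, and the median was 0.17, with -0.019 over all genes. Past 1, 0 were lower (background 3.8%) and 2 higher (background 2.89%), Rpl3 at 2.39 and Rpl26 at 1.02, and past 0.5, 4 were lower (background 12%) and 16 higher (background 10.6%). The higher side included Rps20 at 0.80, Rplp1 at 0.62 and Rpl32 at 0.61. The 2521 protein-coding genes spanning under 10 kb had medians of 0.45 in BLA-A against BLA and 0.17 in BLU-A against BLU. Of these genes, 31.7% and 32.1% were lower, and past 1, 740 and 109 were higher. Over all 78 members the median was thus below that of these short genes in blackberry and near it in blueberry. Over the 12 members with few copied windows, the blackberry median of 0.50 was not below the 0.45 of the short genes.

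Tests were possible only where several libraries stood in a group. Quasi-likelihood tests in edgeR, adjusted by Benjamini-Hochberg over all genes at 0.05, called 0 of the 78 members in the 4 treated libraries against the untreated one (background 0.0227%), with 0 members and 2.72% of all genes at an unadjusted p under 0.05, and 0 members among the 18 genes called by DESeq2. The untreated side of this test is 1 library, and its spread is taken from the 4 treatments, which differ from each other. The tests called 0 members in the nanoparticles against the extracts (background 0%), where 10 members, all higher in the nanoparticles, had an unadjusted p under 0.05, as did 6.39% of all genes, and DESeq2 called 1 member among 27 genes. Among the members the smallest adjusted p of that edgeR test was 0.668, shared by Rps20, which had the lowest unadjusted p, and other members. They also called 0 members in the blackberry against the blueberry libraries (background 0%), where 7 members and 3.48% of all genes had an unadjusted p under 0.05, and DESeq2 called 0 members among 13 genes. Here the other berry or the other form serves as the replicate. With 1 library left out, the nanoparticle test called 39 members without BLU-A, where 24.9% of all genes were called, and 4 without BLA-A (0.475% of all genes). The berry test called 45 without BLA, where 29.5% of all genes were called, 5 without BLA-A (1.71%) and 1 without BLU (0.122%). These calls compare 1 library with 2 and take its spread from the other group.

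Genes around the members were described from lists. Among cytosolic ribosomal protein genes outside the symbol rule, Fau, which encodes Rps30 fused to a ubiquitin-like protein, was at 102 CPM in untreated cells, 62.7 under BLA, 77.3 under BLU, 20.7 under BLA-A and 119.8 under BLU-A (-2.28 in BLA-A), lowest there. Rack1, a scaffold on the head of the small subunit, was at 663 CPM in untreated cells, 500.3 under BLA, 487 under BLU, 650.1 under BLA-A and 611 under BLU-A. Rps27rt, a retrogene of Rps27, was at 20.6 CPM in untreated cells, 22.2 under BLA, 15.5 under BLU, 85.0 under BLA-A and 21.4 under BLU-A (2.02). The paralogs Rpl22l1, Rpl7l1 and Rpl36al were at 13.5, 70.4 and 45.0 CPM in untreated cells and 21.4, 74.4 and 57.5 in BLA-A.

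The 77 kept genes of the mitochondrial ribosome had medians of -0.39 for BLA, -0.28 for BLU, -0.047 for BLA-A and -0.051 for BLU-A. Past 0.5, 31 of the 77 were lower (background 21.4%) and 3 higher (background 21.1%) in BLA. Mrpl17 had the lowest mean over the treatments, with 42.9 CPM in untreated cells and 22.0 in BLA, and Mrps6 the highest, with 42.6 and 64.9. The 28 nucleolar genes of ribosome biogenesis had medians of -0.42, -0.24, -0.11 and -0.21 in the same order. Past 0.5, 13 of the 28 were lower (background 21.4%) and 0 higher (background 21.1%) in BLA. Dkc1, the pseudouridine synthase of box H/ACA particles, was lowest on average, at 148 CPM in untreated cells and 80.3 in BLA, and Taf1d highest, at 207 and 257. The 20 translation factors and other known 5′ TOP genes had medians of -0.31, -0.19, -0.29 and -0.13. In BLA 3 of these 20 were lower (background 21.4%) and 0 higher (background 21.1%) past 0.5. Tpt1, a classical 5′ TOP gene, was at 344 CPM in untreated cells, 162 under BLA, 205 under BLU, 95.5 under BLA-A and 352 under BLU-A, with -1.08 in BLA and -1.85 in BLA-A, and Gas5, a snoRNA host, was highest on average, with 0.81 in BLA-A. The 20 regulators of mTORC1 and of 5′ TOP mRNAs had medians between -0.015 and 0.13. Of these, Eif4ebp2, a repressor of cap-dependent translation, was at 24.6 CPM in untreated cells and 64.8 in BLA-A, Rps6kb2 at 7.74 and 6.05, and Ddit4, an mTORC1 inhibitor, had the largest difference in BLA-A (2.31).

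**Figure D5:**
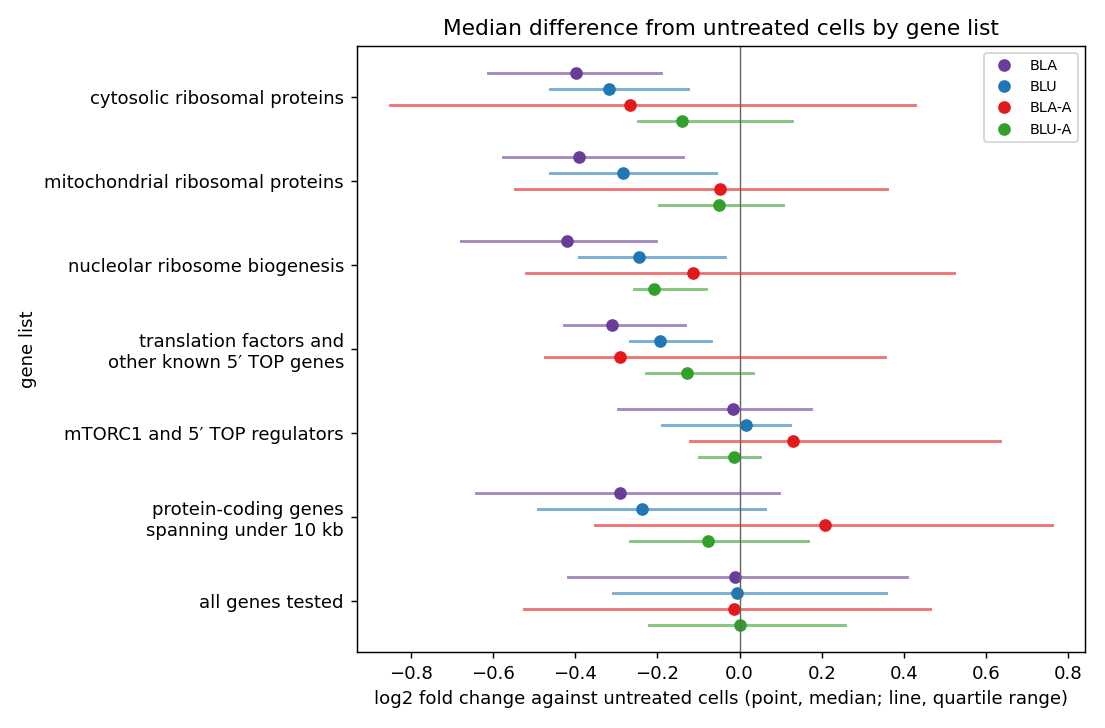
Median (points) and quartile range (lines) of the log2 fold change against untreated cells for each gene list and treatment. The cytosolic, mitochondrial and nucleolar lists have medians between -0.42 and -0.39 in BLA, and short protein-coding genes lie at -0.29.

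Several other values differed between the same libraries. The 2521 protein-coding genes spanning under 10 kb had medians of -0.29 for BLA, -0.24 for BLU, 0.21 for BLA-A and -0.077 for BLU-A, and the 2637 genes spanning over 100 kb 0.15, 0.20, -0.21 and 0.066. Counting covered introns, so unspliced RNA is part of each value. In the extracts the members thus lay below 0 with other short genes, and in BLA-A the short genes lay above 0 while the members' median did not. Among nuclear RNAs, Neat1 was at 193 CPM in untreated cells, 669 under BLA, 476 under BLU, 242 under BLA-A and 404 under BLU-A, highest in BLA, and Malat1 took 0.167% of the counts in untreated cells and 0.375% in BLA. Gm26917 took 5.94% in untreated cells and between 4.55% and 7.84% in the treatments. The genes of the mitochondrial genome took 0.0851% to 0.102% in the other libraries and 0.00129% in BLA-A, which stands apart from the rest. The part of these values in the members' differences was not tested.

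The label of the cells was checked with marker lists. Epcam was at 68.9 CPM in untreated cells, and 6 of the 8 mammary epithelial markers were kept, with a summed level of 1283 CPM in untreated cells and 957 to 1725 in the treatments. The leukocyte list (3 of 6 kept) summed to 8.27 to 11.0 CPM and the endothelial list (3 of 4 kept) to 2.48 to 6.59. The fibroblast list (3 of 6 kept) summed to 88.0 to 104 CPM, nearly all of it from Pdgfra, at 90.5 in untreated cells. Of the receptors that define the triple-negative class, Pgr was at 0.952 CPM, Esr1 at 24.3 and Erbb2 at 33.6 in untreated cells, so reads on both of the latter genes were present. Krt19 was at 11.5 CPM in untreated cells and 45.1 in BLA-A.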

How the data were processed

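The authors removed ribosomal RNA, sequenced the libraries, used STAR for alignment to GRCm39 and counted reads by strand on whole genes, introns included, keeping only unique alignments. They deposited counts per gene without normalization in 15 columns. The deposited tables of fold changes, p-values and enrichment scores hold the authors' own comparisons and were not used. Build and DESeq2 1.36.0 are also named in the submitters' processing notes.

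Columns of a condition with a chi-square per degree of freedom under 1.5 were averaged. A gene was kept if any library reached 1 CPM (17594 genes). Normalization was by TMM (edgeR 4.0.16, R 4.3.3), and a log2 fold change is the difference of log2(CPM + 0.5), which understates changes of low genes. Differences past 1, the size used in the study, and past 0.5 were counted. Groups of libraries were compared by the edgeR quasi-likelihood test. It was also run on simulated data with less spread and larger changes than most here, so what it misses here is unknown. DESeq2 1.42.0 was an alternative. Copies were found by BLAST of the shortest CCDS coding sequence (GENCODE M39, GRCm39). The SD over the 3 read subsets of a member's log2 CPM was at most 0.14. The subsets were closer than sampling noise, so this SD understates read sampling, and it holds no spread between cultures. Members and lists were chosen with earlier results of these data known. The text names the 3 highest and 3 lowest members of each comparison with untreated cells, the 3 with the largest range, the 5 most abundant in untreated cells, members with listed roles, members left out, genes outside the symbol rule (1 of these and 1 member are not reported here), and the highest and lowest of the other lists. Other names (such as Rps26, Rps20, Rpl8, Rps27l and Ddit4) were added after their values were seen.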

Additional observations from a re-analysis of the deposited data

Results flagged for a closer look

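In 5 members the nanoparticle lay on opposite sides of its extract in the 2 berries, past a log2 difference of 0.5 in both. The share of all genes that meet this rule was not counted, so these 5 members have no background beside them. Each side has 1 library, so the difference between the berries was not tested. Rpl3 was at -0.74 in BLA-A against BLA and 2.39 in BLU-A against BLU. Rps23 was at -2.53 and 0.74, Rpl26 at -1.25 and 1.02, Rps27a at -0.91 and 0.82, and Rpl36 at -0.83 and 0.52, in the same order.

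Some copies and pseudogenes of members, which the comparisons did not use, had at least 20 counts and at least 3 times those of untreated cells in a treatment. Reads of a member and of its copy can be split by the counting. In BLA-A these were Rps15a-ps5 with 375 mean counts against 94.3 in untreated cells, Gm6988, a copy of Rps25, with 587.0 against 157, Rps12-ps16 with 46.7 against 0, Rps12-ps10 with 24.7 against 3.00, and Gm10420, a copy of Rps2, with 27.3. Gm5459, a copy of Rpl7a, had 63.0 under BLA, 61.0 under BLU and 37.7 under BLU-A. Gm6109, a copy of Rpl30, had 87.7 in BLA, and Gm17669, a copy of Rpl29, had 28.7 in BLU. In BLU-A, Gm6285, a copy of Rpl12, had 21.3 and Gm43247, a copy of Rpl21, had 23.0.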

How the results depend on the processing

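The median of the members kept its sign under every scaling, filter, pseudocount and choice of members tried, in all 6 comparisons. It ran from -0.50 to -0.38 in BLA, from -0.36 to -0.29 in BLU, from -0.46 to -0.034 in BLA-A and from -0.16 to -0.11 in BLU-A, against untreated cells, from 0.032 to 0.50 in BLA-A against BLA and from 0.16 to 0.19 in BLU-A against BLU. The range in BLA-A spans scaling by total counts, which shifts the median of all genes there to -0.18, and the 12 kept members with under 25% of windows copied, an alternative chosen after seeing the data. Adding the counts of all near-identical copies to their members, also chosen after seeing the data, left 17 members lower and 10 higher past 1 in BLA-A. Counts past 0.5 in both directions together stayed within 1.5 times. By direction, 3 counts did not. Members higher in BLU were 5 with no filter and 1 with all near-identical copies added, in place of 3, and members lower in BLU-A were 1 in place of 2 with the -ps pseudogenes added. Past 1, BLU against untreated cells had 1 member in place of 0 under total-count, median-of-ratios and upper-quartile scaling, with 1 CPM in every library, with a pseudocount of 0.1 and in the range of 0 to 1 without a replicate column, and BLU-A against BLU had 1 in place of 2 with a pseudocount of 2. That member in BLU was Rps23, at -0.99. DESeq2 called 1 member in the nanoparticles against the extracts. Leaving out a library gave 0 to 39 members in that test, 0 to 45 in the berry test and 0 in the treated against the untreated, where leaving out the untreated library leaves no test. With the 15 columns as separate samples the 3 tests called 14, 45 and 34 members (21.1%, 44.8% and 33.1% of all genes), and 9, 36 and 22 with a replicate block (15.2%, 34.9% and 22.4%). These columns are read subsets, and same-numbered columns did not deviate together (r from -0.017 to 0.024 over 30 pairs), so the numbers pair nothing. The calls on 15 columns treat subsets of 1 library as independent samples and hold no spread between cultures. Some printed levels rest on few counts, such as Rps23 in BLA-A at 49.7 mean counts. Members with copies rest on the reads that remained unique, and 1 library per condition leaves the spread between cultures unknown.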

Other observations

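Some pseudogenes and retrogenes of the members had many counts and differed between libraries. Rpl13-ps6, a copy of Rpl13, had 1368 mean counts in untreated cells, 474 under BLA, 507 under BLU, 5.33 under BLA-A and 1616 under BLU-A, so BLA-A was far below the rest. Rpl13 itself had 1212, 785, 2319, 847 and 1345 in the same order, with its highest value in BLU, where the pseudogene was low. Rpl37rt, a retrogene of Rpl37, had 2698 mean counts in untreated cells and 6485 in BLA-A, and Rpl37 had 519 and 2259.7, so both were high in BLA-A. Rpl34-ps1 had 1131 in untreated cells and 370.0 in BLA-A, and Rpl34 had 3470.0 and 1259. Rps18-ps4 had 2244 and 1982, while Rps18 was at 458 and 154. Of the 16 pseudogene symbols listed, 6 reached 1 CPM in a library.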
